A study of Mus musculus with 6 samples.

Results

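Glycolysis splits glucose into pyruvate, and lactate dehydrogenase and monocarboxylate transporters turn pyruvate into lactate and carry it out of the cell. The 34 genes described here encode the glucose transporters, every enzyme of that route, the kinases that keep pyruvate out of the mitochondrion, and the lactate carriers. They were chosen by symbol, and 30 of the 34 had at least 1 named probe, 51 probes in all, out of 19057 genes with a named probe. Hk2, Gpi1, Pfkfb1 and Eno1 had no probe of that name and were not analysed here.

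RNA came from mouse T cell acute lymphoblastic leukemia (T-ALL) that NOTCH1 had induced, from male animals by the labels, whose age is not given in the sources used here. Cells positive for GFP, CD4 and CD8 had been sorted from bone marrow at 4 weeks after transplantation, and total RNA was hybridised to Illumina bead arrays. The groups were 3 control (wild type) arrays and 3 arrays labelled Klf4-deficient (knock out), with NOTCH1-induced leukemia in both groups. The labels do not say which Cre or cell type carried the deletion, nor that the 3 samples of a group came from separate animals, so the p-values measure only the spread between these samples, which may be technical. RNA from sorted cells is a bulk measurement, in which fewer cells of a type and less RNA per cell cannot be told apart.

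Proliferating lymphoid cells take up much glucose and release lactate even with oxygen present, and several steps of the route are encoded by more than 1 gene, whose products differ in regulation and tissue. Hypoxia-inducible factor and MYC are known activators of many of these genes, and both bind short sites in promoters. Pyruvate dehydrogenase kinases phosphorylate and switch off pyruvate dehydrogenase, and so favour lactate over mitochondrial oxidation.

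The arrays had mean probe signals of 359 to 445, with 17152 to 17446 of 45281 probes above background, a limit of 21.8 to 23.7 signal units set at 3 times the SD of the background. Klf4-deficient array 3 stood apart on the first principal component of the genes above background everywhere, which held 52.5% of the variance. The Klf4 probe in use read 44, 18.4 and 24.6 in the controls and 80.6, 46 and 85.4 in the arrays labelled Klf4-deficient, and since its place relative to the deleted part is unknown it checks nothing about the deletion. Of the markers of the sorted cells, Cd3e read 13528 to 15232 in controls and 11577 to 13492 in the other group, and Cd4 read 1044 to 1477 and 1052 to 1415. Cd8a was near the limit in both groups, at 29.5 to 32.7 and 12 to 34, while Cd8b1, the other CD8 chain and a gene chosen after its values were seen, read 28518 to 29424 and 25892 to 26627. Of the 12 measured markers of the sorted cells 10 differed in the negative direction, with a median of -0.09 (log2). The groups did not overlap for 2, Cd1d1 (-0.16 ± 0.04, SE) and Cd3d (-0.09 ± 0.04), both lower. Groups did not overlap for 11.6% of all genes and 17.6% of those above background on all 6 arrays, as 11 of the 12 were. Summed neutrophil, monocyte and macrophage, and erythroid markers were highest on Klf4-deficient array 3. The sums of NK and of megakaryocyte markers were highest on Klf4-deficient array 2 and that of B lineage markers on control array 3, and the stromal and endothelial sum was lowest on Klf4-deficient array 3. Neutrophil markers (17 of 18 above background on every array, Mmp8 on none) summed to 78558 to 109759 in the control group and 80038 to 158332 in the other. Monocyte and macrophage markers (10 of 20 above background on every array, Cd163 and Cybb on none) summed to 4768 to 6380 and 5685 to 13873, and erythroid markers (10 of 16, with Epb42 and Rhd on none) to 33629 to 41432 and 40882 to 57599. In the positive direction differed 20 of 20 measured monocyte and macrophage, 14 of 16 erythroid and 16 of 18 neutrophil markers. In that order, 8, 3 and 0 were higher without overlap and 0 lower, where 5.48% of all genes were higher and 6.09% lower.

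Promoter stretches of 3 genes are shown because the data or known regulation single out their genes. Pdk1 had the smallest p of the members and was the sole member above background on all arrays whose groups did not overlap, and Ldha and Pgk1 are known targets of hypoxia-inducible factor that differed by 0.03 and 0.12 (log2). Each is the 250 bases before a RefSeq start on GRCm38.p6, 5′ to 3′, and capitals mark ACGTG and GCGTG on either strand, the core that hypoxia-inducible factor binds. CACGTG, the E-box that MYC binds, overlaps ACGTG on both strands.
Pdk1, chr2:71872974-71873223, + strand: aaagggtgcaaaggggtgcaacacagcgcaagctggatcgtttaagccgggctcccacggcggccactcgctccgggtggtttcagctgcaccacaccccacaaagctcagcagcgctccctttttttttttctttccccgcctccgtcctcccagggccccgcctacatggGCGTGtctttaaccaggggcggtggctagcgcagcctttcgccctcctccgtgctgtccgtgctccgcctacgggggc
Ldha, chr7:46845554-46845803, + strand: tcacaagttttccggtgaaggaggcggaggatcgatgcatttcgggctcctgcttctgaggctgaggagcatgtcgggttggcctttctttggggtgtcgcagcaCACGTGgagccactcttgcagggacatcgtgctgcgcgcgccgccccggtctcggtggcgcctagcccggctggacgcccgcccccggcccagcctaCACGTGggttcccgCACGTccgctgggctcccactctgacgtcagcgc
Pgk1, chrX:106186850-106187099, + strand: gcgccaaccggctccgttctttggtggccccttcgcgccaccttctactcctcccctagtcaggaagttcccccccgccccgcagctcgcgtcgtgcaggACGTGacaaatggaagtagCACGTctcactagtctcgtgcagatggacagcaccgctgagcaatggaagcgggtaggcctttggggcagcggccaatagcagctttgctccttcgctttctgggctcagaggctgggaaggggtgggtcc
The Pdk1 stretch held 1 GCGTG and 0 ACGTG. Ldha held 5 ACGTG matches, of which 2 CACGTG sites gave 4, and Pgk1 held 2 ACGTG and 0 CACGTG. RefSeq listed promoters for 33 of the 34 members, Slc2a3 not among them, with 53 such stretches. ACGTG occurred in 35.8% of the 53 and in 16.6% of all 32851 promoter stretches of that length. GCGTG occurred in 47.2% and 28.2%, and CACGTG in 11.3% and 6.02%. Stretches of 1 gene can overlap and share a match, and the 53 include those of Hk2, Gpi1, Pfkfb1 and Eno1, which had no probe. With each gene counted once, the shares were 45.5% and 18.5% for ACGTG, 60.6% and 30.9% for GCGTG, and 18.2% and 6.86% for CACGTG. The shares were not adjusted for base composition. A match describes letters only, and a second RefSeq start of Pdk1 held neither core. A second start of Ldha held 0 ACGTG, 1 GCGTG and 0 CACGTG.

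Across the route, no difference between the groups passed the test, and most were small. In limma, 0 of the 30 measured members passed at an adjusted p of 0.05, where 0.0105% of all genes did. With no adjustment, 1 of the 30 had a p under 0.05 (3.33%, against 7.6% of all genes). That member was lower, as were 4.09% of all genes, and 0 were higher, as were 3.51%. The groups did not overlap for 2 of the 30 (6.67%), against 11.6% of all genes. Both were lower in the arrays labelled Klf4-deficient, where 6.09% of all genes were lower and 5.48% higher without overlap. Signals passed the background limit on all 6 arrays for 21 members, on some arrays for 4 and on none for 5. The median log2 difference, Klf4-deficient minus control, was 0.05 over the 30 members and 0.03 over the 21, against 0 over all genes and -0.01 over the 8361 genes above background on all 6 arrays. Of the 21, 11 differed in the positive and 10 in the negative direction. The 95% interval of the difference, not adjusted for the number of genes, lay inside a 1.5-fold change either way for 16 of the 21 (76.2%) and for 73% of the 8361 genes.

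**Figure D1:**
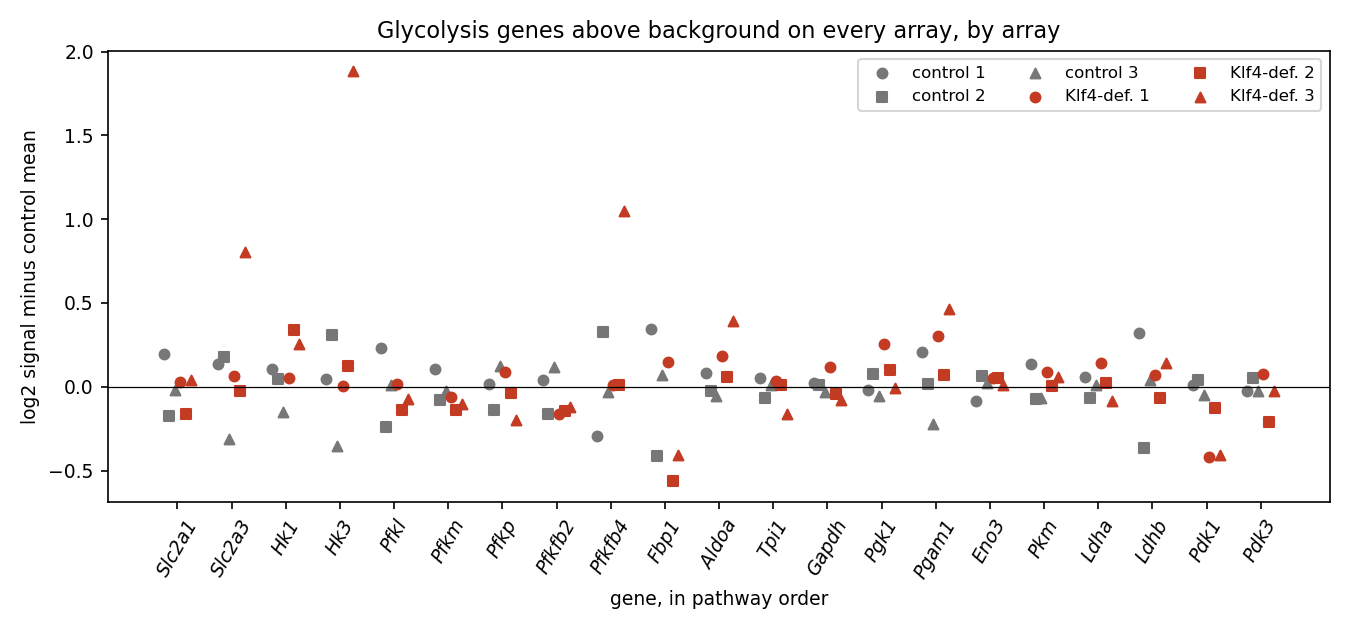
Signal of the 21 members above background on every array, as log2 minus the mean of the controls (vertical axis), for each gene in pathway order (horizontal axis). Grey points are control and red points Klf4-deficient arrays, with a circle, square or triangle for replicate 1, 2 or 3. Most genes lie near 0 on every array, Hk3, Pfkfb4 and Slc2a3 stand out on Klf4-deficient array 3 at 1.88, 1.05 and 0.80, and Pdk1 lies below the controls on all 3 Klf4-deficient arrays.

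The glucose transporters that bring sugar across the membrane showed no difference past the test. Slc2a1, which encodes the widespread transporter of proliferating cells and red cell precursors, read 724, 506 and 609 in the controls and 601, 533 and 516 in the arrays labelled Klf4-deficient. The groups overlapped, and the log2 difference was -0.03 ± 0.12 (SE), with a 95% interval of -0.34 to 0.27. Slc2a3, a high-affinity transporter of neurons and leukocytes, read 1296, 1227 and 936 in the controls and 1180, 1118 and 1629 in the other group. Array 3 of the Klf4-deficient label was the highest and the other 2 lay within the control range, for a difference of 0.28 ± 0.28. Slc2a6, a lysosomal sugar transporter known from macrophages, was above background on 2 of 3 arrays of each group, at 33.2, 26.2 and 19.8 against 19.2, 40.1 and 99.6, again with Klf4-deficient array 3 highest. Its difference was 0.62 ± 0.51.

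Hexokinases trap glucose in the cell by phosphorylating it. Hk1, the constitutive form bound to mitochondria, read 118, 100 and 92.6 in the controls and 104, 135 and 110 in the arrays labelled Klf4-deficient, so the groups overlapped (log2 difference 0.21 ± 0.12, interval -0.09 to 0.52). A dimmer second Hk1 probe differed by -0.24 ± 0.31, the opposite sign. Hk3, the form known from myeloid cells, read 492, 537 and 358 in the controls and 446, 492 and 1418 in the other group. Klf4-deficient array 3 alone exceeded the controls, and the difference of 0.67 ± 0.59 (adjusted p = 0.783 from limma) was 0.06 without that array.

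Phosphofructokinase makes the first committed step, and its liver, muscle and platelet subunits were all above background on all 6 arrays. Pfkl (liver) had a mean signal of 1410 ± 282 (SD, n = 3) in controls and 1233 ± 155 under the Klf4-deficient label, Pfkm (muscle) 1464 ± 151 and 1258 ± 142, and Pfkp (platelet) 1028 ± 138 and 929 ± 176. On the normalized log2 scale the 3 subunits differed by -0.07 ± 0.13 (SE), -0.10 ± 0.05 and -0.05 ± 0.10. Dimmer probes of Pfkl and Pfkp differed by -0.19 ± 0.16 and -0.28 ± 0.23, and those of Pfkm by 0.02 ± 0.10 and -0.21 ± 0.20. The interval of Pfkm, the narrowest of the 3, was -0.24 to 0.04. The ratio of any 2 subunits within an array was as even, with differences of differences between -0.05 and 0.03 and an exact permutation p of 0.90 for all 3 pairs (two-sided).

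The bifunctional PFKFB enzymes set the level of the strongest activator of phosphofructokinase. Pfkfb2, the form that heart muscle uses and that Akt phosphorylates, read 154, 117 and 158 in the controls and 121, 127 and 114 in the other group (-0.14 ± 0.09). Pfkfb4, a form that hypoxia induces, read 436, 613 and 509 against 504, 512 and 877, the last from Klf4-deficient array 3, and its difference of 0.36 ± 0.36 was 0.01 without that array. Pfkfb3, an inducible form, was above background on Klf4-deficient array 3 alone, at 26.2, and between 7.5 and 18.6 elsewhere. Fbp1, the gluconeogenic phosphatase that runs the step backwards, read 86.9, 40.9 and 65.9 in the controls and 67.1, 36.2 and 37.8 in the other group. Those groups overlapped, and the interval of -1.05 to 0.50 left the Fbp1 difference (-0.28 ± 0.30) poorly determined.

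Array 3 of the Klf4-deficient label accounted for the highest value of Hk3, Pfkfb4, Slc2a3 and Slc2a6, a set named after its values were seen. Relative to the control mean, Hk3 lay at 1.88, Slc2a6 at 1.62, Pfkfb4 at 1.05 and Slc2a3 at 0.80 on that array. On Klf4-deficient arrays 1 and 2 these genes lay between -0.18 and 0.12, except Slc2a6 at 0.43 on array 2. The neutrophil marker median was 1.52 on array 3 and -0.19 and -0.06 on arrays 1 and 2, and the monocyte and macrophage median 1.32, 0.17 and 0.76. The erythroid median was 2.19 on array 3 and 0.12 and 1.20 on arrays 1 and 2. Their part in the result was not tested. Without array 3 the differences of Hk3, Slc2a6, Pfkfb4 and Slc2a3 were 0.06, 0.13, 0.01 and 0.02. A smaller difference was bound to follow, because the set was named for its values on that array. Pgam1 and Aldoa, outside the set, were also highest on that array, at 0.47 and 0.39. The SD of the log2 deviation over the 21 members was 0.53 on that array and between 0.12 and 0.18 on the other 5.

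**Figure D2:**
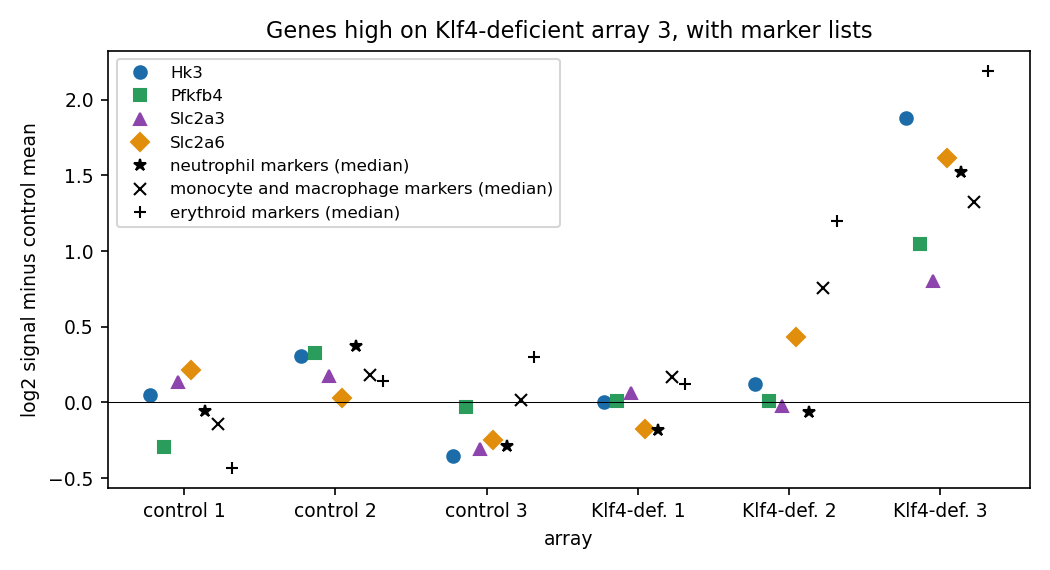
Log2 signal minus the control mean (vertical axis) on each of the 6 arrays (horizontal axis) for Hk3, Pfkfb4, Slc2a3 and Slc2a6 (coloured points) and for the medians of the neutrophil, monocyte or macrophage, and erythroid marker lists (black symbols). All 7 series have their highest value on Klf4-deficient array 3, from 0.80 for Slc2a3 to 2.19 for the erythroid markers. The genes were chosen after their values on that array were seen.

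Aldolase and triose phosphate isomerase cut the sugar into triose phosphates and interconvert them. Aldoa, the aldolase of muscle and most growing cells, read 1791, 1542 and 1622 in the controls and 1836, 1716 and 1761 in the arrays labelled Klf4-deficient. The difference of 0.21 ± 0.10 had an unadjusted p of 0.0882 in limma (adjusted p = 0.737), with overlapping groups. After normalization Klf4-deficient array 3 was the highest for Aldoa, at 0.39 above the control mean (log2). Without that array the difference was 0.12. Tpi1 read 4722, 4077 and 4652 against 4498, 4537 and 3249, for -0.04 ± 0.07 after normalization. Its dimmer probes, above background on all arrays, differed by -0.14 ± 0.12 and -0.38 ± 0.27, and the mean of the probes by -0.18. The brain form Aldoc was under the limit on every array, at 8.4 to 20.9.

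The steps that gain NADH and ATP had narrow intervals. Gapdh, the dehydrogenase often used as a reference gene, read 12187, 11811 and 12046 in the controls and 12959, 11985 and 9302 in the other group. Once the arrays were put on a common scale its difference was 0.00 ± 0.06, with an interval of -0.16 to 0.16. Pgk1, which makes the first ATP, read 2629, 2607 and 2592 against 3020, 2817 and 2109 (0.12 ± 0.08). Both other Pgk1 probes were under the limit on every array, so a probe at background does not show that its gene is silent. Klf4-deficient array 3, the array with the lowest mean signal, had the lowest raw signal for Tpi1, Gapdh and Pgk1.

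Mutase, enolase and pyruvate kinase complete the route to pyruvate. Pgam1, the widespread mutase, read 505, 398 and 362 in the controls and 505, 434 and 484 in the arrays labelled Klf4-deficient (0.28 ± 0.16, interval -0.13 to 0.69). After normalization Klf4-deficient array 3 was the highest for Pgam1, at 0.47 above the control mean (log2), and without that array the difference was 0.18. The muscle form Pgam2 was under the limit on every array. Eno3, the muscle enolase, read 394, 397 and 416 against 408, 414 and 337, and its difference of 0.04 ± 0.05 had the smallest SE of the 21 members. Eno2, the neuronal enolase, was under the limit on every array, and Eno1, the widespread form, was not analysed here. Pkm, which encodes both the M1 and M2 pyruvate kinase, read 9036, 7486 and 8135 in the controls and 8484, 8166 and 6961 in the other group (0.05 ± 0.07). A much dimmer probe differed by -0.25 ± 0.51, and the mean of both by -0.10, the opposite sign. Which splice form each probe reads is not given in the sources used here. Pklr, the kinase of liver and red cells, was under the limit on all 6 arrays with all 3 of its probes, while erythroid markers were present.

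Lactate dehydrogenase turns pyruvate into lactate and restores the NAD that glycolysis needs. Ldha, the form that favours lactate production, read 12492, 11205 and 12509 in the controls and 13252, 12453 and 9297 in the arrays labelled Klf4-deficient. The difference was 0.03 ± 0.07, with an interval of -0.17 to 0.22. Ldhb, the heart form, read 268, 142 and 211 against 206, 191 and 188 (0.05 ± 0.19). The Ldha to Ldhb ratio within an array differed by -0.02 on the log2 scale (exact permutation p = 1, two-sided).

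Lactate leaves lymphoid cells through the monocarboxylate transporters. Slc16a1, the transporter of T cells and most tissues, was under the limit on every array, at -6.9 to 21.6. Slc16a3, the exporter of highly glycolytic cells, read 24.7, 22.3 and 23.7 in the controls and 10.9, 17.8 and 17.7 in the other group. It passed the limit on 2 of 3 control arrays and on 0 of 3 arrays labelled Klf4-deficient. The groups did not overlap, but the signals straddled the limit, and against that limit no fold can be given. Both other Slc16a3 probes were under the limit on every array. Bsg, the chaperone that takes these transporters to the membrane, named after its values were seen, was also under the limit everywhere, at 11.6 to 22.4.

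Pdk1 was the member with the smallest p. It encodes pyruvate dehydrogenase kinase 1, an inducible brake on pyruvate oxidation and a known target of hypoxia-inducible factor. Its signal was 1475, 1388 and 1397 in the controls and 1035, 1291 and 863 in the arrays labelled Klf4-deficient, with means of 1420 ± 47.9 (SD, n = 3) and 1063 ± 215. Every array labelled Klf4-deficient lay below every control. The log2 difference was -0.32 ± 0.09 (SE), a fold of 0.80, with an interval of -0.56 to -0.08. With an adjusted p of 0.540 from limma over all genes, and 0.0194 unadjusted, Pdk1 did not pass. Among the genes above background on all 6 arrays, 17.6% had groups that did not overlap, and 1 of the 21 members did.

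A second Pdk1 probe, designed on another transcript record, was dimmer and also separated the groups. Its signal was 278, 243 and 294 in the controls and 185, 231 and 170 in the arrays labelled Klf4-deficient. The difference of -0.36 ± 0.09 also came from groups that did not overlap (unadjusted p = 0.0100, adjusted p = 0.588 from limma over all named probes). Both probes read the same 6 RNA samples, so the second is no further replicate. Klf4-deficient array 2 was the nearest to the controls with either probe. Relative to the control mean, Klf4-deficient array 1 lay at -0.42 for the Pdk1 probe in use and array 3 at -0.41. The unadjusted p stayed under 0.05 in 13 of 18 alternatives and was lost with array weights and without control array 1 or 2 or Klf4-deficient array 1 or 3. The difference ran from -0.41 to -0.27 over the left-out arrays and was -0.23 with array weights.

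The other kinases of the family did not separate the groups. Pdk3 read 585, 564 and 575 in the controls and 589, 489 and 466 in the arrays labelled Klf4-deficient (-0.06 ± 0.08). Pdk2 hovered at the limit, above it on 1 of 3 control arrays and 2 of 3 arrays of the other group. The ratio of Pdk1 to Pdk3 within an array differed by -0.26, with array values of -0.50, 0.08 and -0.38 relative to the control mean and controls between -0.02 and 0.04. Klf4-deficient array 2 lay above the controls in this ratio, and the exact permutation p was 0.40 (two-sided, 1.00 adjusted over 8 pairs).

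**Figure D3:**
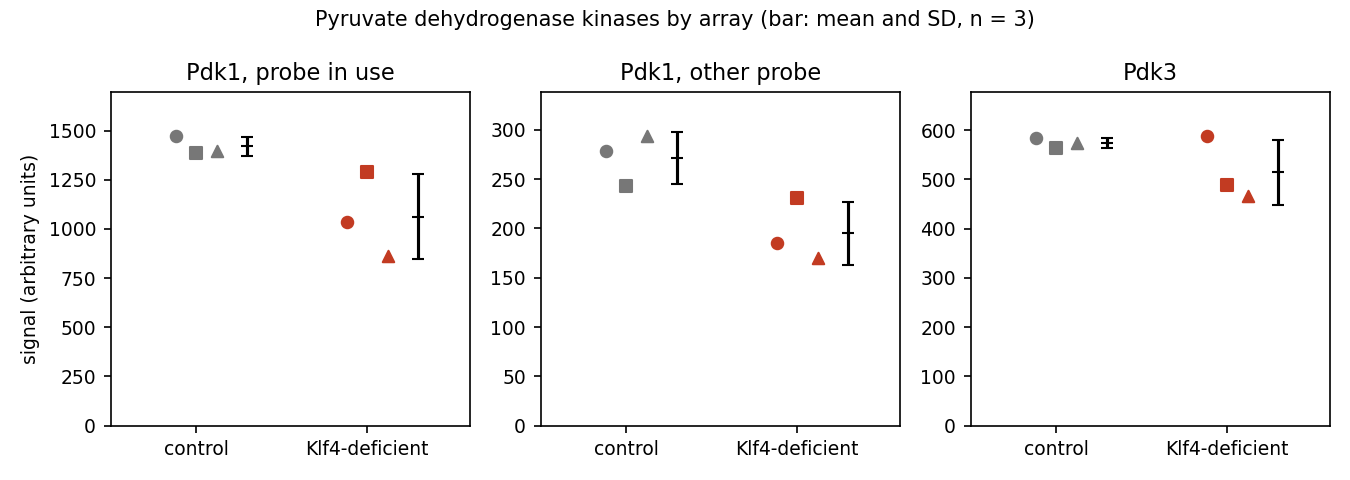
Signal in arbitrary units (vertical axes, from 0) of the Pdk1 probe in use, the other Pdk1 probe and Pdk3 in the control (grey) and Klf4-deficient (red) arrays, with a circle, square or triangle for replicate 1, 2 or 3. Bars give the mean and SD of 3 arrays. Both Pdk1 panels show every Klf4-deficient array below every control, while the Pdk3 groups overlap.

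Which isoform served a step could be read only as detection, because signals of different probes have no common scale. Aldoa but not Aldoc, Pgam1 but not Pgam2, Eno3 but not Eno2, and Pkm but not Pklr were above background on all 6 arrays. Hk2 and Eno1 had no probe of that name, and a probe under the limit does not show that its gene is silent. Hk1 and Hk3, the 3 Pfk genes, Pfkfb2 and Pfkfb4, Ldha and Ldhb, and Pdk1 and Pdk3 were detected side by side in both groups. Detection in bulk RNA does not say which cells held a transcript, and 17 of 18 measured neutrophil markers were also above background on every array. Of the 8 pairs of paralogs above background, 0 had within-array ratios that separated the groups, with exact two-sided permutation p values from 0.40 to 1, where 3 against 3 arrays cannot go below 0.10. Hk1 to Hk3 (-0.46) and Pfkfb2 to Pfkfb4 (-0.50) differed by the most, and in both pairs Klf4-deficient array 3 was the lowest, at -1.63 and -1.17. No member was above background on all 3 arrays of a group and on 0 of the other.

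**Figure D4:**
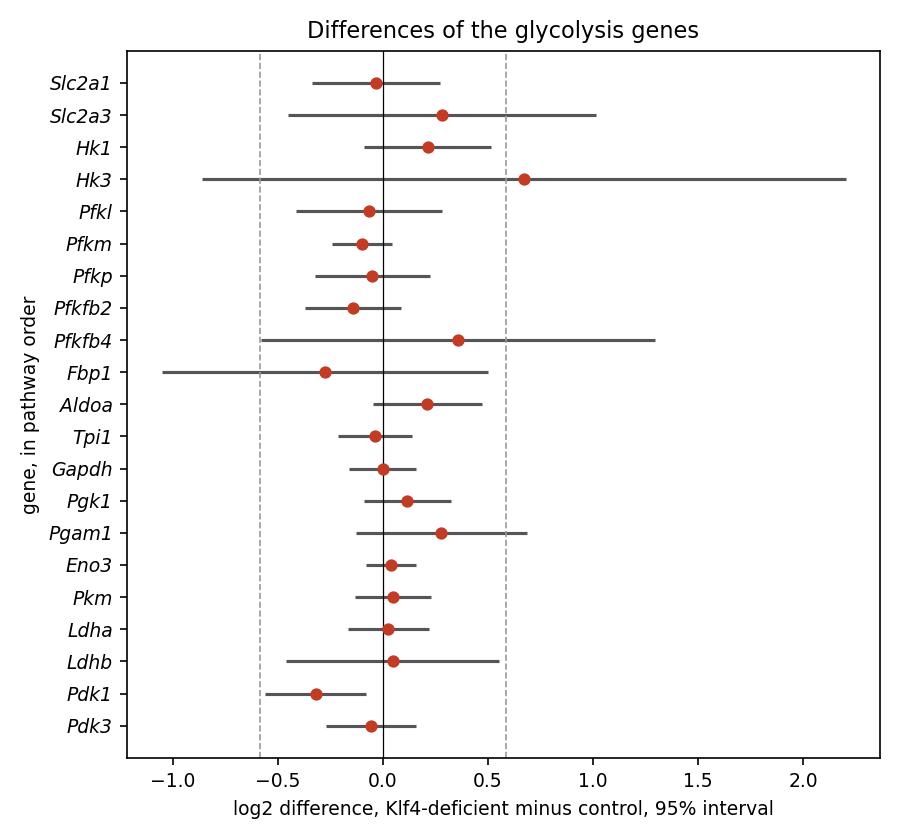
Log2 difference between the Klf4-deficient and control arrays (horizontal axis, points) with its 95% interval from limma (lines) for the 21 members above background on all 6 arrays (vertical axis, pathway order). The dashed lines mark a 1.5-fold change either way, 16 of the 21 intervals lie between them, and Pdk1 alone has an interval that leaves out 0.

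Genes at the mitochondrial gate, where Pdk1 acts, and along the side branches of the route were measured too, and 7.6% of all genes had an unadjusted p under 0.05. Of 8 measured genes of pyruvate entry, 0 passed the adjusted test, 1 was lower and 0 were higher at that p, and the median was -0.07. Dlat, the acetyltransferase core of pyruvate dehydrogenase, read 173, 161 and 175 in the controls and 148, 149 and 128 in the arrays labelled Klf4-deficient (-0.16 ± 0.04, adjusted p = 0.519 from limma). Its groups did not overlap, as was so for 17.6% of all genes above background on all 6 arrays. Pdha1, the subunit that the kinases phosphorylate, differed by -0.13 ± 0.08, the phosphatase catalytic subunit Pdp1 by -0.23 ± 0.16, and the phosphatase regulator Pdpr by -0.10 ± 0.05. Of 10 measured pentose phosphate genes, 0 passed the adjusted test, 0 were lower and 1 was higher at an unadjusted p under 0.05. That gene was Rpe, the epimerase of the branch (0.24 ± 0.07, adjusted p = 0.547). The isomerase Rpia differed by -0.12 ± 0.07, transaldolase Taldo1 by 0.09 ± 0.14 and transketolase Tkt by -0.04 ± 0.05.

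Other paralogs and partners of the route were mostly under the limit, with 6 of 19 above it on every array and 0 past an unadjusted p of 0.05. Pgm1, which links glycogen to the route, differed by -0.05 ± 0.05, and the urate and sugar carrier Slc2a9 by -0.26 ± 0.15. Minpp1, a phosphatase that can bypass a mutase step, differed by -0.27 ± 0.18. Adpgk, an ADP-dependent glucokinase, read 1077, 1032 and 985 in the controls and 1023, 907 and 1821 in the arrays labelled Klf4-deficient, with array 3 highest as for Hk3.

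Regulators of the route were measured beside it. Hif1a, the oxygen-regulated factor, differed by 0.03 ± 0.13 and Myc by -0.02 ± 0.13. Of the 18 regulators, 0 passed the adjusted test, 3 had an unadjusted p under 0.05 (1 higher, 2 lower), and the median was -0.09. That p was met by 7.6% of all genes and by 11.4% of those above background on all 6 arrays. Arnt, the partner with which hypoxia-inducible factor binds DNA, read 913, 856 and 988 in the controls and 764, 761 and 538 in the other group (-0.33 ± 0.09, adjusted p = 0.508 from limma). Txnip, a brake on glucose uptake that sugar itself induces, read 6798, 5373 and 6665 against 4505, 5450 and 4110 (-0.33 ± 0.11, adjusted p = 0.573). Raw Txnip signals overlapped, whereas the normalized values did not. Sp1, a broad activator, differed by 0.31 ± 0.10 (adjusted p = 0.581), and Egln1, an oxygen sensor that marks hypoxia-inducible factor for decay, by -0.30 ± 0.18. Of 17 other targets of hypoxia-inducible factor, 0 had an unadjusted p under 0.05 in limma, and the median was 0.00. Only 8 of the 17 were above background on all 6 arrays, and 5 were above it on none. Of these, 2 read at or below 0 on every array, which fixed their difference at 0, and the median fell on such a gene. Kdm3a, a histone demethylase, differed by -0.20 ± 0.11, the stress-induced Ndrg1 by 0.31 ± 0.17, the mitophagy receptor Bnip3l by 0.11 ± 0.11 and the collagen hydroxylase P4ha2 by 0.24 ± 0.23.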

How the data were processed

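The authors deposited probe intensity values on a linear scale, produced with BeadStudio (named without version in the submitters' processing notes), of which 31.3% to 34.2% per array lay under 0. How the background was taken off, and whether arrays were scaled to each other, is not stated in those sources, nor is a genome build. Negative values were raised to 0, an offset of 16 followed, and log2 of the deposited intensities was quantile normalized. Of 45281 probes the 34885 with 1 symbol in the platform annotation were kept (18 had several, 10378 were unnamed here), and each gene took its brightest probe. Differences come from limma 3.58.1 in R 4.3.3 (lmFit, eBayes with a variance trend), adjusted by Benjamini-Hochberg over 19057 genes at 0.05. Non-overlap was judged on normalized values. The fit was tested on simulated data with independent noise per gene and no effect shared across an array. That test therefore does not cover an outlying array. The number of arrays limits the precision.

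The members, lists and background limit were chosen with earlier results of these data known. All members are named, and of each other list up to 4 genes above background with the smallest p. Klf4, Cd4, Cd8a and Cd3e are always given. Marker lists of other cells are given by sums and medians, and some also by counts of direction and overlap. Hif1a, Myc, Bsg and Cd8b1 fall outside the rule and were chosen after their values were seen, and Mmp8, Cd163, Cybb, Epb42 and Rhd are named as undetected. The alternatives were other scalings, offsets, variance models, probe summaries, a filter on dim genes, the replicate block and left-out arrays.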

Additional observations from a re-analysis of the deposited data

How the results depend on the processing

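In all 18 alternatives 0 members passed the adjusted test. At an unadjusted p under 0.05 there were 2 members with no normalization between arrays, an offset of 50, no variance trend or robust moderation (Pdk1 and Slc16a3 each time), 0 with array weights, and 0 to 2 when 1 array was left out. The members' median of 0.048 was -0.025 under median centring, -0.050 unnormalized, 0 over every probe, and between -0.0026 and 0.065 when 1 array was left out. Unnormalized, the median was -0.03 over all genes and -0.11 over those above background on all arrays, and the members' median lay between these. Over all genes, where 2 passed, 1 passed with median centring, an offset of 50, no variance trend, robust moderation or every probe, 5 with an offset of 1 or no normalization, 0 with the mean of probes, and 3 to 21 when 1 array was left out. With the replicate number as a block 0 of all genes passed and Pdk1 had an adjusted p of 0.687. Deviations of same-numbered arrays from their group means correlated at 0.15, -0.03 and -0.24. The highest correlations with another number were -0.05, 0.25 and 0.21. With 3 arrays per group these values cannot settle whether the numbers pair samples, and the labels do not say. Left-out arrays gave 0 to 2 separated isoform pairs, namely Slc2a1 to Slc2a3 and Pfkfb2 to Pfkfb4 without control array 2, and Pdk1 to Pdk3 without Klf4-deficient array 2. With Klf4-deficient array 1 as the lone array of its label, assumed to vary like the controls, 3 members had an unadjusted p under 0.05, 2 pairs separated and 488 genes passed. The pairs were not run over every probe. The sign of the difference held in all 17 alternatives with 1 value per gene for 8 of the 21 members above background on all 6 arrays, Pdk1 among them, and changed in at least 1 for 13. No variance trend, robust moderation, the replicate block and the filter on dim genes leave the difference as it was, so they could not change a sign.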

Other observations

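Genes of the serine and glycerol branches, which draw intermediates from glycolysis, had a median log2 difference of -0.02 over 8 measured genes, with 0 at an unadjusted p under 0.05 in limma. Phgdh, the first enzyme of serine synthesis, read 563, 535 and 535 in the controls and 558, 525 and 295 in the arrays labelled Klf4-deficient. Shmt1, which passes the carbon of serine to folate, read 695, 657 and 761 against 752, 677 and 363. For both genes Klf4-deficient array 3 was the lowest of the 6. Shmt2, the mitochondrial form, differed by 0.19 ± 0.10 (SE) and Gpd2, which feeds glycerol phosphate electrons to the respiratory chain, by 0.04 ± 0.06.

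Among 13 measured genes of the Akt and mTOR pathway, a growth signal that raises glucose use, 0 passed the adjusted test. At an unadjusted p under 0.05 there were 2, both lower, as were 4.09% of all genes. Of the 13, 10 were above background on all 6 arrays, and 11.4% of all such genes met that p in either direction. Rptor, which brings substrates to the mTOR kinase, read 1326, 1138 and 1178 in the controls and 965, 1056 and 821 in the arrays labelled Klf4-deficient (-0.24 ± 0.05, adjusted p = 0.429 from limma). Tsc1, a restraint on the same kinase, read 285, 293 and 323 against 237, 233 and 196 (-0.32 ± 0.07, adjusted p = 0.444). The groups overlapped for neither gene, and 6.09% of all genes were lower without overlap. Among genes above background on all 6 arrays, 17.6% did not overlap in either direction. Pik3r1, a regulatory subunit of phosphoinositide kinase, differed by -0.13 ± 0.07 and Stk11, an activator of the energy-sensing kinase AMPK, by 0.05 ± 0.04.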
